A study of Homo sapiens with 2 samples.

Results

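Genes for 8 reader proteins of N6-methyladenosine (m6A) were examined among genes with peaks in RNA bound by ALKBH5: YTHDF1, YTHDF2, YTHDC1, YTHDC2, IGF2BP1, IGF2BP3, FMR1 and PRRC2A. They were chosen by name out of 5851 gene symbols that the authors' 3 tables hold. YTHDF3 and IGF2BP2, the remaining paralogs of the YTHDF and IGF2BP families, were considered with them and were not named in any of the tables. The members were picked because the tables name them, so that 8 of 10 is a description and not a finding. Beside it, 26.8% of protein-coding genes were named.

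The cells were HL-60, a line established from human promyelocytic leukaemia. RNA immunoprecipitation and sequencing was done with an antibody against ALKBH5, the enzyme that removes the methyl group of m6A, on 80% of a lysate. The other fractions were an input and a rabbit IgG control. The groups of libraries here were 1 ALKBH5 immunoprecipitate and 1 input, both from HL-60 cells labelled with the genotype ALKBH5, with no treatment given, and the IgG fraction was not used here. For each library, the title and the library name give opposite groups, and the library names were followed. No value below is split by library, so none depends on that choice. That a peak marks RNA bound by ALKBH5 does rest on which library the authors took as the immunoprecipitate, which the sources used here do not describe. The tables hold no level per gene, no peak height and no depth, so a transcript is described only as named or not named. No difference between immunoprecipitate and input could be computed or tested. A gene is named only where a listed annotation term, pathway or protein family holds it, so a gene not named may still have had a peak. Shares of genes named are therefore not shares of genes with peaks. Of 8 promyelocytic marker genes, MPO, PRTN3, CD33 and CEBPA were named and ELANE, AZU1, CTSG and SPI1 were not. None of the 4 lymphoid and 3 erythroid markers nor ALB was named, while all 4 epithelial markers (EPCAM, KRT8, KRT18 and KRT19) were; their part in the results was not tested.

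m6A is placed on RNA by a methyltransferase complex (the writers), removed by the demethylases FTO and ALKBH5 (the erasers), and recognised by readers. YTH domain proteins bind the methylated base directly: the YTHDF proteins act in the cytoplasm on translation and decay, YTHDC1 acts in the nucleus on splicing and export, and YTHDC2 carries a helicase domain beside its YTH domain. The IGF2BP proteins, which bind RNA through KH domains, are known for stabilising their target mRNAs. FMR1 encodes FMRP, a regulator of translation whose loss causes fragile X syndrome, and PRRC2A is a proline-rich protein reported as a reader in mouse. The terms below describe the encoded proteins; the measured item is that a peak of the ALKBH5 experiment was annotated to the gene.

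The Gene Ontology (GO) term RNA binding named all 8 members, each of which was also an entry of other terms. The authors' deposited table gave this term 821 entries out of 1366 background genes, a rich factor (the term's share in the input over the overall share) of 1.80 and a corrected p of 5.33e-16. Counted by distinct gene identifier it held 782, or 57.2% of its background genes (exact Clopper-Pearson 95% interval 54.6 to 59.9%, counting error only). Most genes annotated to RNA binding therefore stood beside the readers in that term. In most terms below, deposited entries likewise exceed distinct identifiers, so entries out of genes overstate the share present. The deposited rich factors and p-values were not recomputed by identifier. Together the members held 81 entries in 41 terms, 40 of the 311 GO terms and 1 of the 38 KEGG pathways. Of the 41 terms, 16 had a deposited corrected p under 0.05 (39.0%), against 12.2% of the listed GO terms and 5.26% of the listed KEGG pathways. None of the 41 had a deposited uncorrected p above 0.0410. Whether listing was limited by p is not given in the sources used here. These shares are therefore not shares of all GO terms or KEGG pathways. The terms that held a member were also broad, with a median of 156 background genes, against 52.5 in listed terms without a member.

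**Figure D1:**
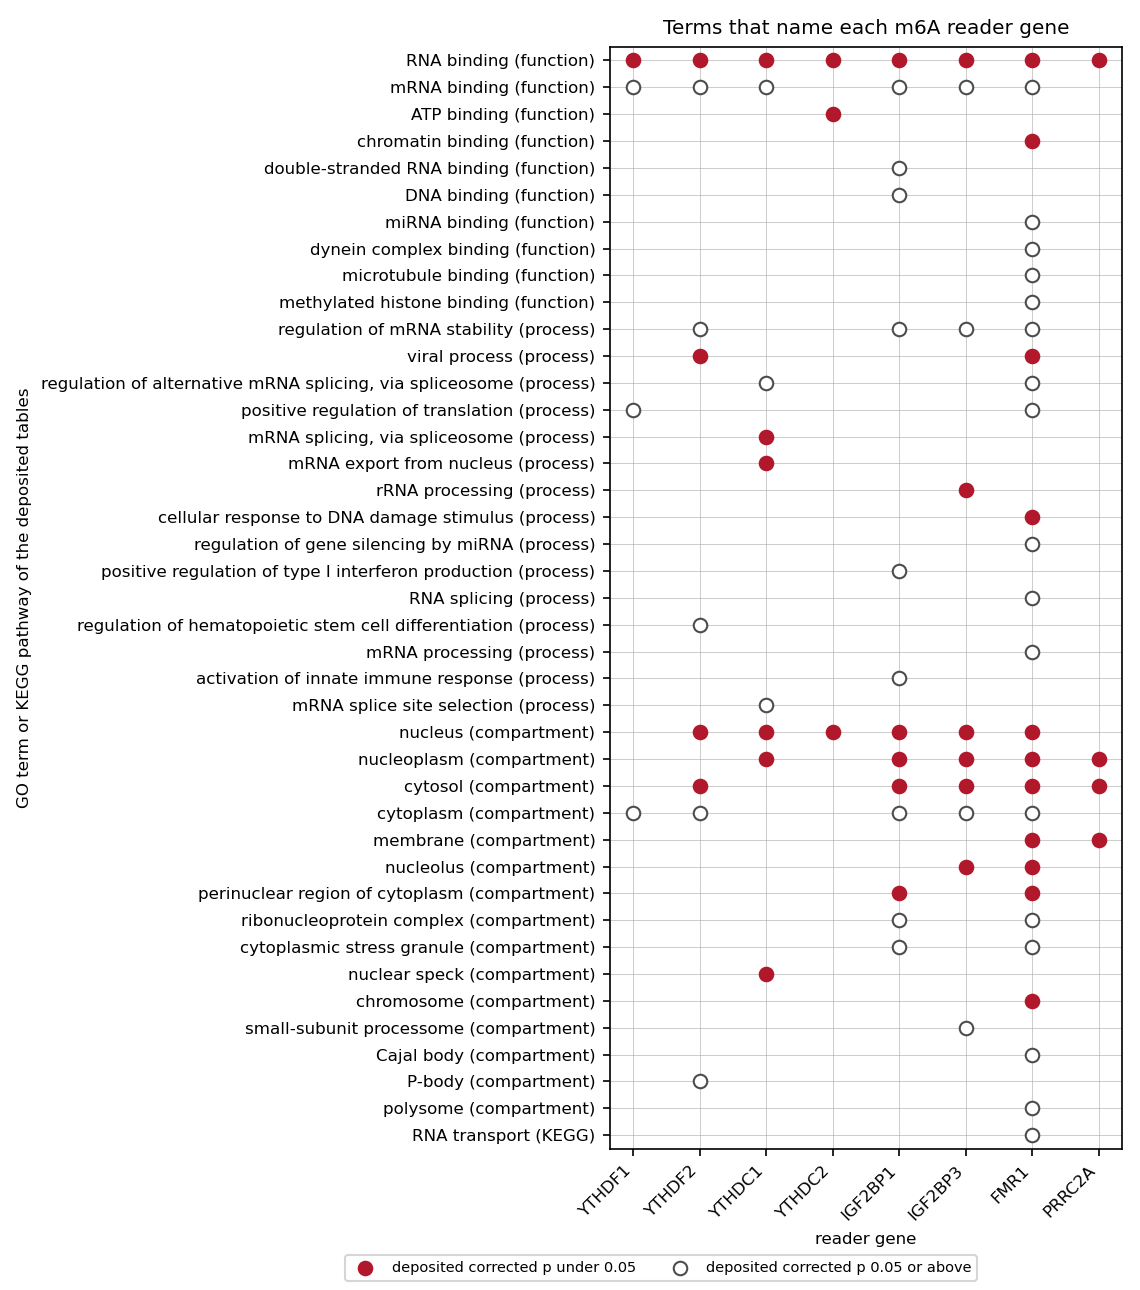
Each row is a GO term or KEGG pathway of the deposited tables that names at least 1 member, each column a member, and a dot marks an entry; filled dots are terms of deposited corrected p under 0.05. RNA binding is the only row filled across all 8 genes, and 13 rows hold a dot for FMR1 alone.

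The readers differed in how many terms carried them. FMR1 was an entry of 28 terms, IGF2BP1 of 14, IGF2BP3 of 10, YTHDF2 and YTHDC1 of 9 each, YTHDF1 and PRRC2A of 4 each and YTHDC2 of 3. The median was 9 for the members, against 4 for all 5614 symbols of the GO and KEGG tables. It was 4.5 for the members, against 2 for all symbols, over terms of corrected p under 0.05, and 5 against 2 over terms of under 1000 background genes. FMR1 lay near the top of the whole distribution, with 99.5% of symbols in fewer terms and 18 symbols in more. YTHDC2 had more terms than only 28.7% of symbols. A number of terms follows how fully a protein is annotated and is no measure of binding by ALKBH5.

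**Figure D2:**
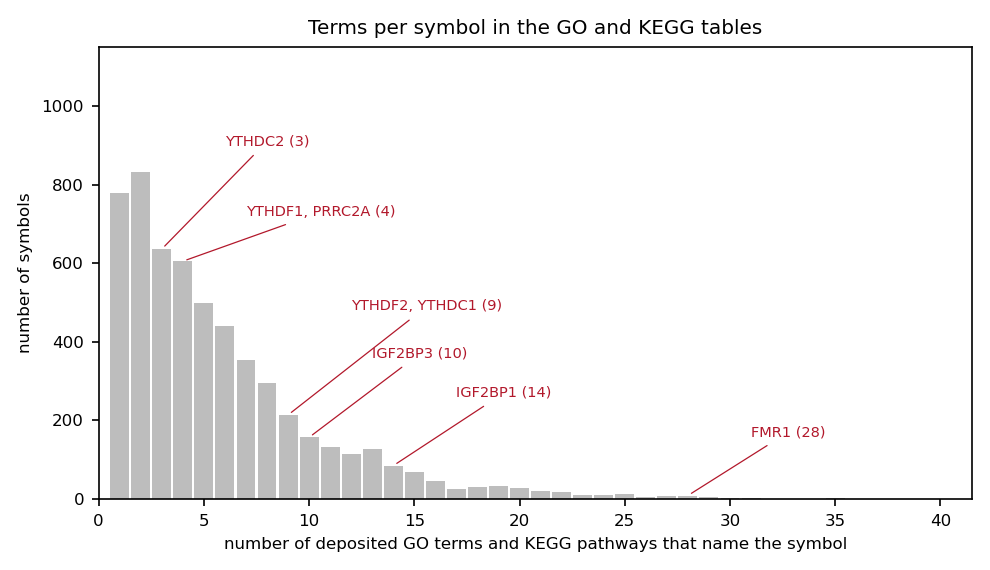
Grey bars count the symbols (vertical axis) named by a given number of deposited GO terms and KEGG pathways (horizontal axis); red labels place the 8 readers, with their number of terms in brackets. YTHDC2, YTHDF1 and PRRC2A sit at 3 to 4 terms, among the commonest values, and FMR1 sits in the right tail at 28.

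The cytoplasmic YTHDF readers shared 3 terms. YTHDF1 (chromosome 20, 63195429 to 63216131, GRCh38.p14) is known for promoting translation of methylated mRNA. It was an entry of RNA binding, mRNA binding, cytoplasm and positive regulation of translation, and only the first of these had a deposited corrected p under 0.05. The authors' deposited table gave positive regulation of translation 44 entries out of 73 genes (corrected p 0.797). The other member in it was FMR1. YTHDF2 (chromosome 1, 28736624 to 28769775) recruits the CCR4-NOT deadenylase to methylated mRNA and so promotes its decay. It shared RNA binding, mRNA binding and cytoplasm with YTHDF1 and added cytosol, nucleus, viral process, regulation of mRNA stability, P-body and regulation of hematopoietic stem cell differentiation.

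P-body, the granule of mRNA decay, named YTHDF2 alone among the 8 readers; the authors' deposited table gave it 51 entries out of 88 genes (corrected p 0.821). Of 16 genes for decay partners, 8 were entries of the same term: CNOT1 and CNOT8 of the CCR4-NOT complex, the deadenylase subunit PAN2, the helicase DDX6, the decapping factor DCP1A, the exonuclease XRN1, UPF1 and RC3H1. By distinct identifier the term held 47 of its 88 background genes (53.4%). How many of the 16 partners are among those 88 was not examined, so the 8 are a description only. Regulation of hematopoietic stem cell differentiation also named YTHDF2 alone, and the authors' deposited table gave it 42 entries out of 69 genes (corrected p 0.797). For viral process, which held YTHDF2 and FMR1, the authors' deposited table gave 291 entries out of 456 genes (corrected p 7.46e-07).

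The nuclear reader YTHDC1 (chromosome 4, 68310387 to 68350090) stood in terms of splicing and export. It alone of the 8 was an entry of nuclear speck, mRNA splicing via spliceosome, mRNA export from nucleus and mRNA splice site selection. The authors' deposited table gave nuclear speck, a store of splicing factors, 259 entries out of 400 genes (corrected p 2.04e-06). The authors' deposited table gave export 80 entries out of 101 genes (corrected p 0.00245) and splice site selection 16 out of 21 (corrected p 0.988). By distinct identifier 74 of the 101 export genes were present (73.3%, 95% interval 63.5 to 81.6%). ALKBH5 itself was an entry of the export term, as were the export receptor NXF1 and the splicing factors SRSF3 and SRSF7, which YTHDC1 is known to work with. The remaining terms of YTHDC1 were RNA binding, mRNA binding, nucleus, nucleoplasm and, with FMR1, regulation of alternative mRNA splicing via spliceosome.

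YTHDC2 (chromosome 5, 113513694 to 113595284), known for its part in meiosis, was named by RNA binding, nucleus and ATP binding only. It was the sole reader in ATP binding, to which the authors' deposited table gave 819 entries out of 1463 genes (corrected p 6.03e-11). RNA helicase activity was also a term of the authors' deposited table, with 60 entries out of 74 genes (corrected p 0.0132), and YTHDC2 was not among its entries. The 3 terms of YTHDC2 all had a deposited corrected p under 0.05, and each had at least 1366 background genes.

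IGF2BP1 (chromosome 17, 48996558 to 49056145) and IGF2BP3 (chromosome 7, 23310209 to 23470491) shared 7 terms out of 17 held by either. These were RNA binding, mRNA binding, nucleoplasm, nucleus, cytosol, cytoplasm and regulation of mRNA stability. Regulation of mRNA stability also held YTHDF2 and FMR1, so that it named 4 of the 8 readers, and ALKBH5 was among its other entries. The authors' deposited table gave it 72 entries out of 111 genes (corrected p 0.161). IGF2BP1 further stood, with FMR1, in cytoplasmic stress granule (corrected p 0.700 in the authors' deposited table), ribonucleoprotein complex (0.282) and perinuclear region of cytoplasm (0.0204).

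A further 7 terms, none of them held by both IGF2BP genes, named functions and compartments other than those the proteins are chiefly known for. IGF2BP1 alone of the readers was an entry of double-stranded RNA binding, DNA binding, positive regulation of type I interferon production and activation of innate immune response, whose corrected p in the authors' deposited table were 0.110, 0.182, 0.314 and 0.972, in that order. IGF2BP3 alone was an entry of rRNA processing (100 entries out of 141 genes and a corrected p of 0.00437, per the authors' deposited table) and small-subunit processome (33 out of 39, corrected p 0.180), and shared nucleolus with FMR1. In the RefSeq gene table, ZBP1 is a synonym of IGF2BP1 and also the official symbol of a sensor of nucleic acids in innate immunity on chromosome 20. Likewise IMP3 is a synonym of IGF2BP3 and the official symbol of a nucleolar protein of rRNA processing on chromosome 15. Neither of these other genes was named in any table, by symbol or by identifier. No other member had such a synonym, and among listed protein-coding symbols 5.57% had one. Whether the shared synonyms brought IGF2BP1 and IGF2BP3 into these 7 terms was not tested. Without them IGF2BP1 kept 10 terms and IGF2BP3 kept 7, all of which IGF2BP1 also held.

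FMR1 (chromosome X, 147911919 to 147951125) had the widest set of terms. The 13 terms that named it alone among the readers covered small RNAs (miRNA binding, regulation of gene silencing by miRNA), RNA maturation (RNA splicing, mRNA processing, Cajal body), translation and transport (polysome, RNA transport, dynein complex binding, microtubule binding) and chromatin (chromatin binding, methylated histone binding, chromosome, cellular response to DNA damage stimulus). Of these, chromosome (98 entries out of 127 genes, corrected p 6.58e-04), cellular response to DNA damage stimulus (146 out of 248, corrected p 0.0392) and chromatin binding (237 out of 443, corrected p 0.0477) were under 0.05 in the authors' deposited table. By distinct identifier they held 89, 137 and 225 genes, in that order. RNA transport was the sole KEGG pathway with a reader, to which the authors' deposited table gave 91 entries out of 165 genes (corrected p 0.127), beside 5.67% of protein-coding genes named in any KEGG pathway. Its entries also included FXR1, the autosomal paralog of FMR1, and CYFIP1 and CYFIP2, which encode known partners of FMRP. FXR2, the other paralog, was not named.

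PRRC2A (chromosome 6, 31620715 to 31637771) was an entry of RNA binding, nucleoplasm, cytosol and membrane, all of them under a corrected p of 0.05 and all with at least 1366 background genes. The authors' deposited table gave membrane, shared with FMR1, 1092 entries out of 2075 genes (corrected p 6.31e-10). Its paralogs PRRC2B and PRRC2C were named in 1 and 6 terms. Terms of under 1000 background genes named 6 of the 8 readers, without PRRC2A and YTHDC2. They named 21.1% of protein-coding genes, or 4226 of the 5196 that any GO or KEGG term named. Terms of corrected p under 0.05 named all 8, as RNA binding alone does. They named 22.8% of protein-coding genes, or 4580 of the same 5196. The readers were picked for being named, so the counts out of 5196 are the ones to compare them with.

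Across the group, 7 terms were held by 3 or more readers. RNA binding held 8, mRNA binding and nucleus 6 each, nucleoplasm, cytosol and cytoplasm 5 each, and regulation of mRNA stability 4. The nucleus term named YTHDF2 but not YTHDF1 or PRRC2A, and cytosol named YTHDF2, IGF2BP1, IGF2BP3, FMR1 and PRRC2A but neither YTHDC gene. mRNA binding, to which the authors' deposited table gave 116 entries out of 200 genes (corrected p 0.161), lacked YTHDC2 and PRRC2A. A further 8 terms held 2 readers and 26 held 1.

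Likeness between readers was taken as the number of shared terms over the number of terms of either (the Jaccard index). Over the 28 pairs its median was 0.2, with a range of 0.069 to 0.462. YTHDF2 and IGF2BP3 were the most alike (6 shared of 13), followed by IGF2BP1 and IGF2BP3 (7 of 17, 0.412) and YTHDF2 and IGF2BP1 (6 of 17, 0.353). This order turned when the 7 terms above were left out for IGF2BP1 and IGF2BP3 only. These then came first as a pair (7 of 10, 0.7) and YTHDF2 and IGF2BP3 next (6 of 10, 0.6). YTHDF1 and YTHDF2 reached 0.3, and YTHDC1 and YTHDC2, which share a domain and a name, 0.2. YTHDC2 and FMR1 were the least alike, with 2 of 29.

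**Figure D3:**
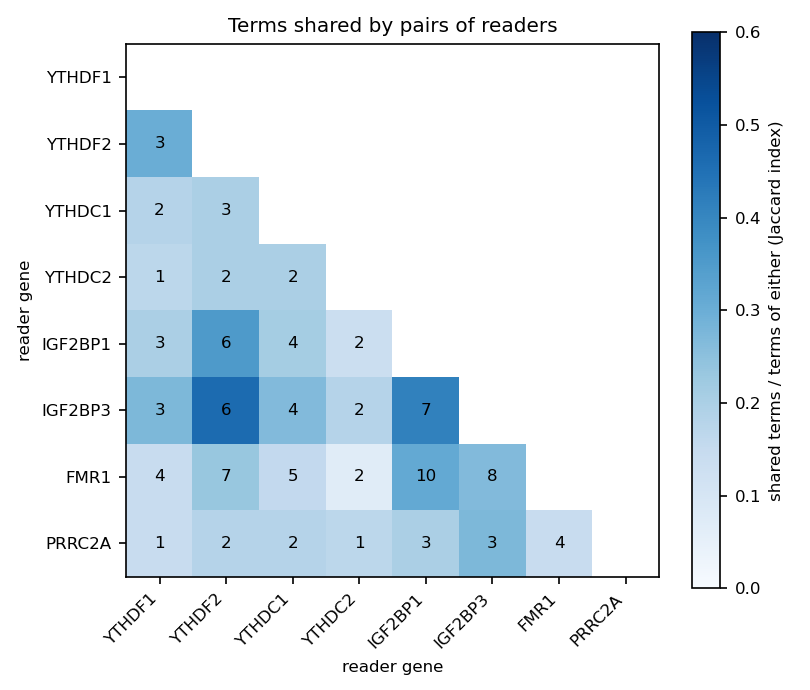
Rows and columns are the 8 readers; the number in a cell counts the deposited terms that name both genes of the pair, and the shade is that number over the terms of either. The darkest cell is YTHDF2 with IGF2BP3 (6 shared terms), and the largest number is 10 for IGF2BP1 with FMR1.

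ALKBH5 was itself named, in 8 terms, and each of these 8 also held at least 1 reader. Over all terms, YTHDC1 was closest to it (5 shared terms, index 0.417), then IGF2BP3 (5, 0.385), PRRC2A (3, 0.333) and YTHDF2 (4, 0.308). IGF2BP1 (5, 0.294), YTHDC2 (2, 0.222) and FMR1 (6, 0.2) followed, and YTHDF1 shared RNA binding only (0.091). This order depends on the 7 terms set apart above for IGF2BP1 and IGF2BP3, none of which held ALKBH5. Without them both genes would have a higher index. IGF2BP3 would hold fewer terms than YTHDC1 with the same 5 shared, and so come before it. The median index was 0.301 for the readers, against 0.118 for the 3995 other symbols of at least 3 terms and 0.2 for the 812 other entries of RNA binding besides ALKBH5, as a description with no test. Named genes of related lists reached similar values, with a median of 0.327 for the 6 splicing and export partners and 0.267 for the 9 writers. Among the writers, VIRMA (0.5) and ZC3H13 (0.444) lay above every reader over all terms. With those 7 terms left out for IGF2BP3, its index would equal that of VIRMA and exceed that of ZC3H13.

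Among 2758 symbols of at least 5 terms that were not readers, the sets of terms most like each reader were as follows. For YTHDF1 they were those of DND1 (0.5), FUBP1 (0.429) and CELF6 (0.375), all RNA-binding proteins. For YTHDF2 they were those of SAMD4B (0.667), the decapping factor DCP1A and TNPO1 (0.545 each). YTHDC1 was most like the splicing factor SRSF6 (0.75), RBM15B (0.583), a subunit of the m6A writer complex, and SRSF5 (0.562). YTHDC2 was most like ADK, DDX10 and RTCA (0.6 each).

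IGF2BP1 was most like the RNA stability factors ELAVL1 (0.5), TIAL1 (0.5) and KHSRP (0.474). With the 7 terms set apart above left out for every symbol, its nearest 3 were TIAL1 (0.6), ELAVL1 (0.562) and ANP32A (0.545). These values would be lower for neighbours that hold such a term if only the readers lost them. IGF2BP3 was most like EMG1 and PDCD11 (0.636 each) and EXOSC2 (0.615), which act in ribosomal RNA maturation. Without those 7 terms, again left out for every symbol and including rRNA processing, small-subunit processome and nucleolus, NOSIP (0.714) came first for IGF2BP3. None of EMG1, PDCD11 and EXOSC2 was then among its nearest 3. FMR1 was most like FXR1 (0.448), the translation factor EIF4G1 (0.4) and ELAVL1 (0.375), and PRRC2A was most like the translation factor subunit EIF3L (0.8), GNL3L and SLC3A2 (0.667 each).

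The table of RNA-binding protein families named FMR1 and no other reader, beside 6.14% of protein-coding genes. FMR1 was paired with all 4 families, namely RRM, CSD, PUF and a joint family of CCHC zinc finger with RRM. That pattern was the commonest there, since 838 of the 1348 symbols (62.2%) had all 4, and every symbol had RRM. FMRP is not known as an RRM protein, and the sources used here do not say what a pairing stands for. Of the other m6A genes, WTAP of the writer complex and ELAVL1 were in this table, and ALKBH5 and FTO were not.

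The rest of the pathway was counted over lists of other m6A genes and of partners of the readers, beside 26.8% of protein-coding genes. Of 11 writer genes 9 were named (81.8%), among them METTL3 and METTL14, which form the catalytic core, METTL16, RBM15, RBM15B and VIRMA. CBLL1 and METTL5 were not. Both erasers were named, ALKBH5 in 8 terms and FTO in 4. Of 9 other RNA-binding proteins linked to m6A 8 were named (EIF3A, ELAVL1, FXR1, G3BP1, HNRNPA2B1 and HNRNPC among them), EIF3A through a KEGG pathway alone.

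Of 16 decay partners 11 were named (68.8%), including CNOT1, CNOT10, CNOT6, CNOT8, DCP1A and DDX6, and CNOT2, CNOT3 and CNOT7 were not. Of 8 partners in splicing and export 6 were named (KHDRBS1, NXF1, SAFB, SAFB2, SRSF3 and SRSF7). Of 21 partners in translation and RNP granules 14 were named (66.7%), with CYFIP1, CYFIP2, DHX9, EIF3B, EIF3C and EIF3D, while YBX1, STAU1 and PUM2 were not. Many genes of these lists encode RNA-binding proteins, but how many are annotated to the term RNA binding was not counted. Since 57.2% of the background genes of that term were present, the shares are to be read against that value as well.

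**Figure D4:**
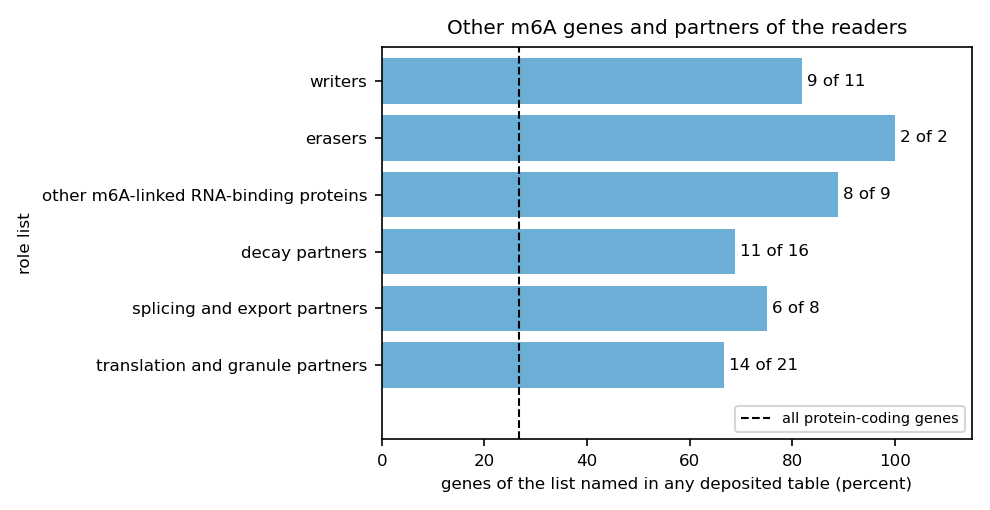
Bars give the percent of each list's genes named in any deposited table (horizontal axis from 0), with the counts at the bar ends, and the dashed line marks all protein-coding genes (26.8%). All 6 lists lie to the right of the line, from 66.7% for translation and granule partners up to both of the 2 erasers.

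The genes themselves differed in length, from PRRC2A, longer than 27.3% of listed protein-coding genes, to IGF2BP3, longer than 89.9%. Members spanned 17.1 kb (PRRC2A) to 160.3 kb (IGF2BP3) of genome, introns included, with a median of 39.5 kb, against a median of 35.7 kb for listed and 20.1 kb for unlisted protein-coding genes. The unnamed YTHDF3 spans 44.2 kb and IGF2BP2 181.9 kb. YTHDF1, YTHDF2, YTHDC1, YTHDC2 and FMR1 overlapped no other gene of the reference. IGF2BP1 overlapped 2 genes, IGF2BP3 3 and PRRC2A 2, none of which was named in the tables. Whether a peak was assigned to these neighbours as well cannot be told from tables of annotated terms. Each member's identifier was carried by its own symbol only and equalled that of RefSeq, whereas 5.56% of the 5237 identifiers were carried by more than 1 symbol.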

How the data were processed

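The authors deposited 3 tables of the whole series. Per the file headers, the GO and KEGG tables give for each term the counts of input entries and background genes, a rich factor (a ratio), a p-value and a corrected p-value, all the authors', and the entries as identifier and symbol. The deposited family table pairs symbols with families, with no number or score; these other columns are text, per the file headers. Per the submitters' processing notes, the genome was hg38. How reads were aligned, how peaks were called, and whether strand or IgG was used is not given in the sources used here.

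With Python 3.11.15, pandas 2.3.3 and SciPy 1.17.1, the terms naming each gene were counted, and symbols were matched to RefSeq genes of GRCh38.p14 by symbol, then by a synonym unique to the gene. Exact intervals are at 95%. The counting was tested on simulated lists. No test was run: with 1 library per group and no value per library, none was possible. Named were the 8 members, YTHDF3, IGF2BP2, ALKBH5, terms with corrected p under 0.05 or held by 1 or by 3 or more members, the 3 symbols of at least 5 terms most like each member (ties alphabetical), and up to 6 named genes per list; further genes were named after their values were seen. Members and lists were chosen with earlier results of these data known. Depth is unknown. Protein sequences were not used here.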

Additional observations from a re-analysis of the deposited data

How the results depend on the processing

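The 8 readers named became 1 with the KEGG table alone (FMR1) and 1 with the family table alone (FMR1). They stayed 8 with GO alone, with terms of corrected p under 0.05 and without RNA binding, and were 6 with terms of under 1000 background genes. The median of 9 terms became 4.5 with terms of corrected p under 0.05 and 5 with terms of under 1000 background genes. The 7 terms held by 3 or more readers became 4 and 2 under the same limits. With the KEGG table alone, writers fell to 0 of 11, erasers to 0, other m6A-linked proteins to 4, splicing and export partners to 3, translation and granule partners to 8 and paralogs of readers (3 of 6 in all tables) to 1, while decay partners stayed at 10 of the 11 named. The shares of the family table moved by less than their counting interval among symbols also in the GO or KEGG table. Leaving out RNA binding, and leaving out the 7 terms set apart for IGF2BP1 and IGF2BP3, were chosen after seeing the data. The second raised the index of IGF2BP1 and IGF2BP3 to 0.7, above that of YTHDF2 and IGF2BP3. The planned protein alignments were not run. No paired analysis was possible because each group had 1 library and no result comes from a test.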
